A study of Mus musculus with 8 samples.

Results

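The proteasome is the large protease that degrades ubiquitin-tagged proteins, and the genes described here are those that encode its subunits, its activators and its assembly chaperones, together with Nfe2l1, the gene of the transcription factor NRF1. Members were taken by symbol, as Psma, Psmb, Psmc, Psmd, Psme or Psmg followed by a number, or Nfe2l1. Of 50 symbols that matched, the 3 immunoproteasome subunits Psmb8, Psmb9 and Psmb10 and the 1 X-linked gene Psmd10 were left out, which gave 46 members among the 49452 genes of the table (45146 of them autosomal). The rule also takes in Psmc3ip, a recombination protein named for its binding to PSMC3, and Psme2b, a retrocopy of Psme2, neither of which is a canonical subunit. RNA-Seq measured their expression in 8 libraries, 4 groups of 2, made from the brown adipose tissue (BAT) of C57BL/6 males.

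Mice held at 4 °C (replicates 2 and 11) were compared with mice housed at 22 °C (replicates 4 and 7). These mice were 10 to 12 weeks old, and the labels give 24 h at 4 °C, which the methods split into 20 h of cold and 4 h of fasting after it, whereas the fasting state of the 22 °C mice is not clear from the methods. Mice on a high-fat diet (HFD, 54 kJ% fat, replicates 2 and 6) were compared with mice on a control diet (CD, 11 kJ% fat, replicates 6 and 8), and these mice were 32 weeks old after 28 weeks of feeding. The labels name the food of the CD group normal chow, and which was fed is not settled here. No group carried a transgene or a deletion according to the labels. The samples are whole tissue, so fewer cells of a type and less RNA per cell cannot be told apart.

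Each proteasome has a 20S core, built of a ring of alpha subunits (Psma genes) and a ring of beta subunits (Psmb genes) that are each present as a pair, and Psmb5, Psmb6 and Psmb7 encode the constitutive proteolytic subunits. The 19S cap adds the ATPases that unfold substrates (Psmc genes) and the non-ATPase subunits that bind and remove ubiquitin (Psmd genes), while other activators (Psme genes) can replace the cap, and chaperones (Psmg genes, Psmd5 and Psmd9) assist assembly. NRF1 is made in the endoplasmic reticulum and is extracted and processed. When proteasome capacity falls short, it switches on proteasome genes through antioxidant response elements. In brown fat NRF1 is known for maintaining proteasome capacity in the cold.

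The values are FPKM (fragments mapped to a gene, corrected for transcript length and for the depth of the library), which were rescaled so that every library has the same sum over autosomal protein-coding and long non-coding genes. Fold changes are on the scale of log2(rescaled FPKM + 1). Between 10228 and 11436 genes reached 1 FPKM per library before rescaling, and 1 FPKM on a transcript of 2000 bases stood for 166 to 229 fragments. Every group also held 1 library with over 100 FPKM of Gm10800, a gene of satellite repeats, and 1 with at most 4.13 FPKM. The former are called satellite-high here and are replicate 4 at 22 °C, replicate 11 at 4 °C, replicate 8 on CD and replicate 2 on HFD, and the latter are called satellite-low. The brown adipocyte markers were all detected. Their summed level lay between 8771 and 9488 FPKM at 22 °C and between 14631 and 15314 FPKM at 4 °C. Most of these sums came from Ucp1 (804 and 1670 FPKM against 5073 and 5136 FPKM) and Fabp4 (4335 and 4064 FPKM against 5964 and 6615 FPKM). Neither of these genes was called. The median log2 fold change of the 12 markers was 0.16, with 7 values positive and 5 negative. Of the 12 markers, 3 were called higher in the cold, where 2.66% of all genes tested were. In 4 (Adipoq, Prdm16, Cidea and Plin1) both cold libraries lay below both 22 °C libraries, as in 45.0% of all genes tested, and none of the 4 was called. Skeletal muscle markers moved with both comparisons: their sum over the 11 of 12 listed genes found lay at 117 and 573 FPKM at 22 °C against 1673 and 3027 FPKM at 4 °C, and at 476 and 1777 FPKM on CD against 12.8 and 176 FPKM on HFD, with none of the 11 at 0 in any library.

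Proteasome genes were expressed in all 4 groups. Of the 46 members, 44 were at 0.1 FPKM or more in every library, and only the testis subunit Psma8 and the thymus subunit Psmb11 stayed near 0, between 0 and 0.121 FPKM and between 0 and 0.0266 FPKM. Averaged over the 8 libraries, the alpha ring genes ranged from 17.5 FPKM (Psma5) to 70.4 FPKM (Psma3). The beta ring genes lay between 50.9 FPKM (Psmb7) and 81.9 FPKM (Psmb6). The ATPases were lower, at a median of 35.9 FPKM, and the non-ATPase subunits reached from 8.32 FPKM for the deubiquitinase partner Psmd7 to 85.0 FPKM for Psmd8. The assembly chaperones were the lowest class, between 4.36 FPKM (Psmg3) and 10.1 FPKM (Psmg1). Nfe2l1 averaged 94.7 FPKM over the 8 libraries, above the average of every subunit gene. At 22 °C, however, Psmb6 had the higher mean, 83.6 FPKM beside 80.7 FPKM for Nfe2l1. These are levels per transcript length, which is the scale on which genes can be set beside each other.

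The first comparison asked how the proteasome genes stand in BAT after cold exposure. The ATPase and the non-ATPase genes of the 19S cap had mostly positive fold changes at 4 °C, without passing the test, whereas the gene of the activator subunit Psme1 fell. Among 17552 autosomal genes tested with limma, 2.66% were called higher and 4.20% lower at an adjusted p under 0.05. Of the 44 members tested, none was called higher and 1 was called lower (2.27% of them). An unadjusted p under 0.05 was reached by 8 members and by 5490 of the 17552 genes tested. The median log2 fold change of the members was 0.18, beside −0.10 for all genes tested and −0.13 for protein-coding genes with a mean of 1 FPKM or more. In 16 members both cold libraries lay above both 22 °C libraries (36.4%, beside 18.3% of all genes tested), and in 5 both lay below (11.4%, beside 45.0%). The summed level of the 17 19S subunit genes was 418 and 465 FPKM at 22 °C and 610 and 517 FPKM at 4 °C, in replicates 2 and 11. The sum of the 16 20S subunit genes was 736 and 822 FPKM at 22 °C and 953 and 817 FPKM at 4 °C, so that the groups overlapped for the core and not for the cap. Muscle markers were higher in the same libraries (all 11 non-overlapping, 1 of them called), and in a fit of all 8 libraries the members' median was 0.18 with 2 called without a muscle score as covariate and 0.42 with none called with it.

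**Figure D1:**
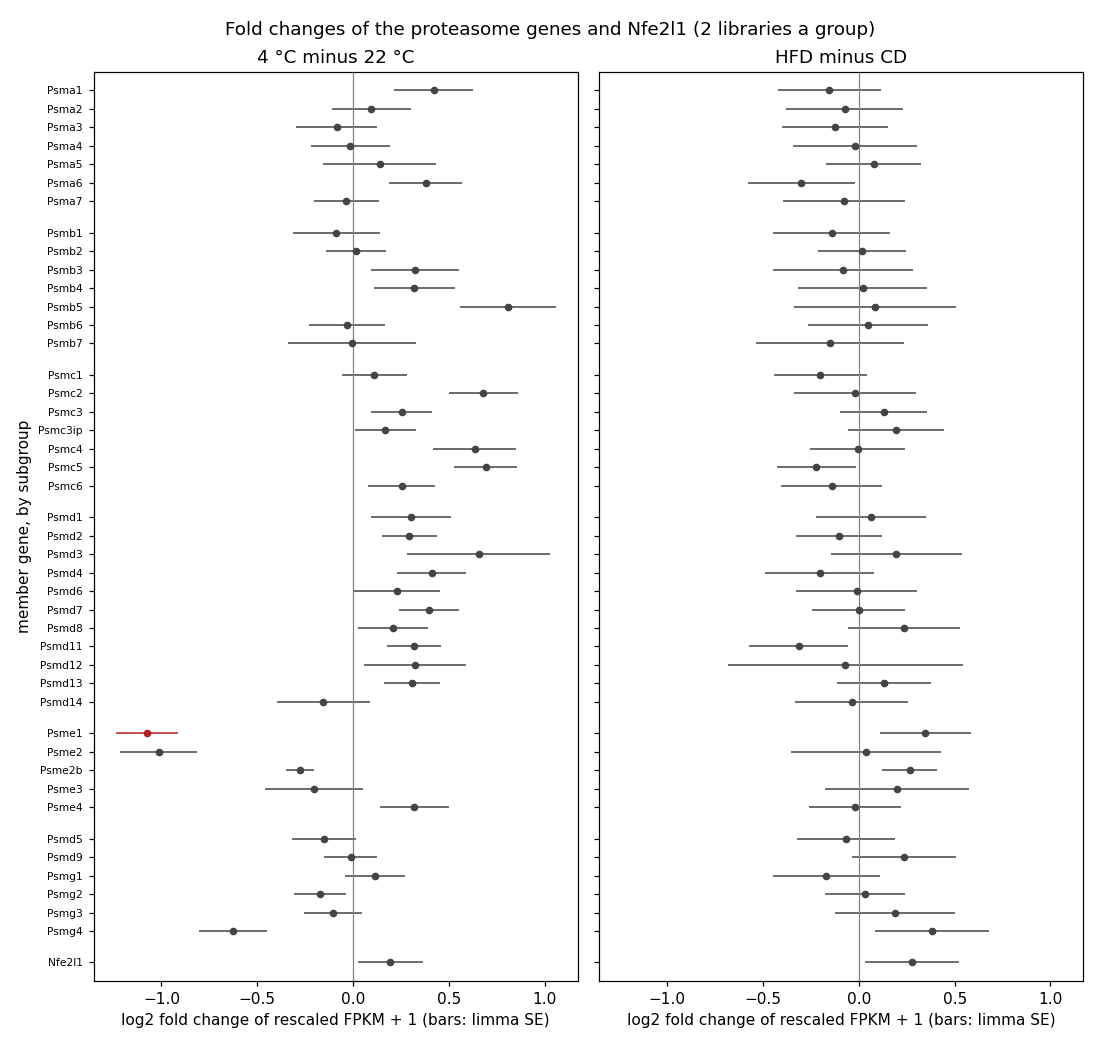
Log2 fold changes of the 44 tested members, by subgroup, for 4 °C minus 22 °C (left) and HFD minus CD (right), on the scale of log2(rescaled FPKM + 1), with bars for limma's SE and 2 libraries a group. The red point is Psme1, the 1 member called in the cold comparison. Most 19S genes lie to the right of 0 in the cold, and the diet values scatter around 0 with a median of −0.01.

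Nfe2l1, the gene of NRF1, was not called in either comparison. It (chr11:96817414-96829968, GRCm38, minus strand) measured 80.8 and 80.5 FPKM at 22 °C against 98.2 and 87.2 FPKM at 4 °C. Both cold libraries were above both 22 °C libraries, yet the log2 fold change of 0.20 (SE 0.17) did not pass the test (limma, adjusted p = 0.476). The value was 0.61 with FPKM as deposited, 0.35 with median centring, 0.083 after quantile normalization, 0.048 with a muscle score in a fit of all 8 libraries and 0.11 without 4 °C replicate 2, and it was not called in any of these. On the diets Nfe2l1 was at 87.3 and 98.3 FPKM (CD) and at 117 and 108 FPKM (HFD), which is 0.28 on the log2 scale (SE 0.25, adjusted p = 0.725). This diet value was 0.086 with median centring and 0.45 with the muscle score in a fit of all 8 libraries, not called in either. The cold and diet fold changes differed by −0.08 in the fit over 8 libraries, with an adjusted p of 0.872. Between satellite-high libraries the cold difference was 0.11 and between satellite-low libraries 0.28 (1 library against 1, no test).

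NRF1 recognises the antioxidant response element, and the matches to its letters found near the starts of members are shown for that reason. The element was searched as TGACNNNGC on both strands in windows from 250 bases before to 50 bases after the start (RefSeq, GRCm38.p6), which were given for 38 of the 46 members. Psma8, Psmb1, Psmb2, Psmb7, Psmc3, Psmd3, Psmd7 and Psmg2 were not among them. In 6 of 38 members (15.8%) the window held a match, beside 14.9% of the 18233 genes of the table with a window. A match is a description of letters and not a site that was tested. Capitals mark the match in the sequences below, each read in the direction of its gene, with 10 flanking bases where the window allows.
Psmb5: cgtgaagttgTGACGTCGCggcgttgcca
Psmb6: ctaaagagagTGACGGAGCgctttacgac
Psmc6: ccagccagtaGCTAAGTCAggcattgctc
Psmd9: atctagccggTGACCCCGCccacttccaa
Psmd12: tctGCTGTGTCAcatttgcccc
Psme4: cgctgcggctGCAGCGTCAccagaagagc
The Psmb5 match begins 47 bases before the start (chr14:54618024-54618052 with its flanks, minus strand) and the Psmb6 match 9 bases before it (chr11:70525338-70525366, plus strand). In Psme4 it begins 7 bases before the start and runs across it, in Psmd9 31 bases, in Psmc6 227 bases and in Psmd12 247 bases before it. The log2 fold changes of these 6 genes in the cold were 0.81, −0.03, 0.25, −0.01, 0.32 and 0.32 in the order Psmb5, Psmb6, Psmc6, Psmd9, Psmd12 and Psme4, so that genes with a match were found with and without a positive value.

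Among the proteolytic subunits the cold values parted. Psmb5 (chr14:54614120-54617995, minus strand), which carries the chymotrypsin-like activity, had the highest fold change of the beta ring. It was at 45.3 and 58.8 FPKM at 22 °C and at 108 and 77.0 FPKM at 4 °C, replicates 2 and 11. The groups did not overlap, and the log2 fold change of 0.81 (SE 0.25) missed the threshold (limma, adjusted p = 0.111). The value of Psmb5 was 1.22 with FPKM as deposited and 1.57 with the muscle score in a fit of all 8 libraries, not called in either. Psmb6, the caspase-like subunit, was at 87.6 and 79.5 FPKM at 22 °C and at 91.5 and 72.9 FPKM at 4 °C, which overlap (log2 fold change −0.03, adjusted p = 0.930). Psmb7, the trypsin-like subunit, was at 51.5 and 56.1 FPKM against 38.7 and 74.2 FPKM (log2 fold change −0.00, SE 0.33), so that its 2 cold libraries stood on either side of both 22 °C libraries. Psmb1, a non-catalytic beta subunit, had the lowest fold change of the ring, −0.09. Over the 7 beta genes tested 4 values were positive and 3 negative, and in the alpha ring 4 and 3, where Psma1 had the highest (0.42, adjusted p = 0.235) and Psma3 the lowest value (−0.09). Without 1 library at a time the value of Psma1 ranged from 0.22 to 0.63.

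**Figure D2:**
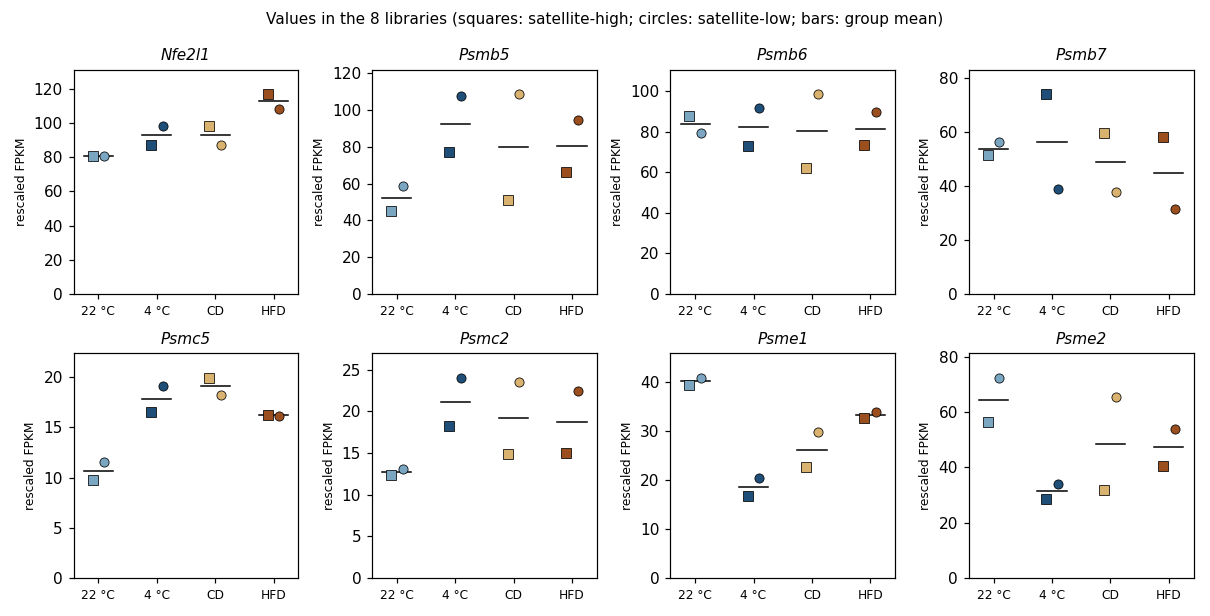
Rescaled FPKM of Nfe2l1, the 3 proteolytic subunit genes, 2 ATPase genes and the PA28 genes in the 8 libraries, with squares for satellite-high libraries, circles for satellite-low libraries and bars for group means. The axes start at 0. Psme1 and Psme2 lie lower in both cold libraries than in any 22 °C library. The Psmb7 libraries lie close at 22 °C (51.5 and 56.1 FPKM). They are spread on both diets and at 4 °C (38.7 and 74.2 FPKM).

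All 7 genes with the Psmc prefix, Psmc3ip included, had positive cold fold changes, at a median of 0.25, and 5 of them had non-overlapping groups (18.3% of all genes tested lay above in this way). Psmc5 (chr11:106256154-106263120, plus strand) had the highest. It was at 9.75 and 11.6 FPKM at 22 °C and at 19.1 and 16.5 FPKM at 4 °C. The log2 fold change was 0.69 (SE 0.16, limma, adjusted p = 0.0689), and it was called in 3 of 16 alternative settings. Psmc2 was at 12.4 and 13.0 FPKM against 24.1 and 18.2 FPKM (log2 fold change 0.68, adjusted p = 0.0849). Psmc4 was at 31.4 and 39.9 FPKM against 63.0 and 48.9 FPKM (log2 fold change 0.63, adjusted p = 0.130). The other ATPase genes were at 0.25 (Psmc3 and Psmc6) and 0.11 (Psmc1, the lowest), and none of the class passed the test.

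Of the 11 non-ATPase subunit genes 10 had a positive value in the cold and 6 had non-overlapping groups, where 18.3% of all genes tested lay above in this way, with a median log2 fold change of 0.31 and adjusted p-values between 0.164 and 0.693 in limma. Psmd3, a subunit of the lid, had the highest value. Its libraries were at 14.2 and 20.9 FPKM at 22 °C and at 38.9 and 19.6 FPKM at 4 °C, so that 1 cold library lay within the 22 °C range (log2 fold change 0.66, SE 0.37). Without 4 °C replicate 2 the value of Psmd3 was 0.18, and without 4 °C replicate 11 it was 1.13. Psmd14, the deubiquitinase of the lid, had the lowest value (−0.15, SE 0.24). Psmd4, the ubiquitin receptor, was at 56.4 and 58.9 FPKM against 84.5 and 70.1 FPKM (log2 fold change 0.41, adjusted p = 0.194), and Psmd11, a lid subunit, at 9.78 and 10.6 FPKM against 13.5 and 12.4 FPKM (0.32).

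The PA28 activator genes had negative values in the cold, and 1 of them was called. PA28 is a ring of the subunits encoded by Psme1 and Psme2, which binds the 20S core in place of the 19S cap, is induced by interferon-gamma and favours peptides for antigen presentation. Psme1 (chr14:55578123-55581529, plus strand) was at 39.5 and 41.0 FPKM at 22 °C and at 20.5 and 16.8 FPKM at 4 °C, and fell by 1.08 on the log2 scale (SE 0.16, limma, adjusted p = 0.0406). Psme2 (chr14:55587441-55591113, minus strand) was at 56.5 and 72.6 FPKM at 22 °C and at 34.0 and 28.6 FPKM at 4 °C. Its fold change of −1.01 (SE 0.20) was close in size but had an adjusted p of 0.0539, and Psme2 was called in 4 of 17 settings, among them library type as covariate (adjusted p = 0.0408). With the muscle score as covariate its value was −0.30 (adjusted p = 0.602). Both 4 °C libraries lay below both 22 °C libraries for the 2 genes, as they did for 45.0% of all genes tested, and within satellite-high libraries the difference was −1.19 for Psme1 and −0.96 for Psme2, within satellite-low libraries −0.96 and −1.07 (1 library against 1, no test). Psme2b, at 0.369 and 0.498 FPKM against 0.205 and 0.161 FPKM, cannot be cleanly separated from Psme2, of which it is a copy. Psme3, the nuclear activator subunit, had a value of −0.20 and overlapping groups, and Psme4, the PA200 activator, was at 0.32 (adjusted p = 0.286). Without 1 library at a time the value of Psme4 ranged from 0.17 to 0.47.

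The call on Psme1 was not firm. It was lost without any 1 of the 4 libraries, at adjusted p-values from 0.0774 to 0.123 in fits with 3 libraries, although the fold change kept its direction and lay between −1.21 and −0.94. Of 16 alternative settings, 8 called Psme1, and with FPKM as deposited its value was −0.67 (limma, adjusted p = 0.191). With the muscle score in a fit of all 8 libraries its value was −0.91, not called (limma, adjusted p = 0.123). The immunoproteasome genes, which are induced by interferon-gamma with PA28 and replace the proteolytic subunits, fell in the same comparison: Psmb8 by 1.56 (adjusted p = 0.0365), Psmb9 by 1.51 (adjusted p = 0.0365) and Psmb10 by 0.75 (adjusted p = 0.0471) on the log2 scale in limma. Psmb8 was at 11.6 and 15.6 FPKM at 22 °C and 3.39 and 4.45 FPKM at 4 °C. Psmb8 and Psmb9 were each called in 12 of 17 settings and Psmb10 in 3, the reported one included. All 3 calls were lost without either 4 °C library, and that on Psmb10 also without either 22 °C library, at adjusted p-values for the 3 genes from 0.0844 to 0.148. With the muscle score none was called, and the values were −0.85, −0.85 and −0.49 for Psmb8, Psmb9 and Psmb10 (adjusted p = 0.145, 0.156 and 0.327). Of 8 interferon-induced genes listed, 7 were called lower in the cold, beside 4.20% of all genes tested. The summed level of the 8 genes was 57.8 and 70.8 FPKM at 22 °C against 25.6 and 28.9 FPKM at 4 °C. Lymphoid markers were low in all libraries, at a sum of 1.51 and 2.05 FPKM at 22 °C and 0.672 and 0.765 FPKM at 4 °C, with 7 of 7 tested genes lower without overlap (45.0% of all genes tested) and none called (4 at an unadjusted p under 0.05 in limma), and the part of these cells in the PA28 values was not tested. Macrophage markers overlapped in sum (53.9 and 74.3 FPKM against 50.3 and 89.4 FPKM).

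**Figure D3:**
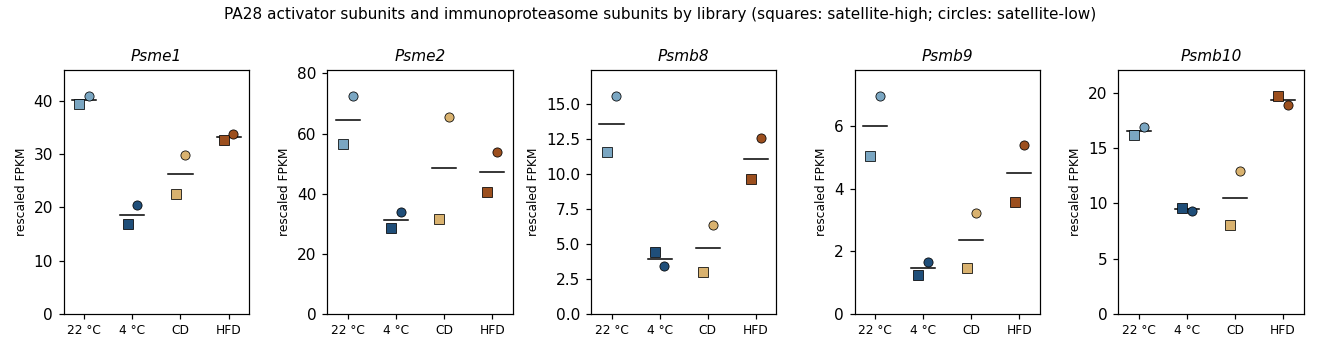
Rescaled FPKM of the PA28 genes Psme1 and Psme2 and of the immunoproteasome genes Psmb8, Psmb9 and Psmb10 by library, with axes from 0, squares for satellite-high and circles for satellite-low libraries and bars for group means. In all 5 genes both 4 °C libraries are below both 22 °C libraries, with Psmb8 at 3.39 and 4.45 FPKM against 11.6 and 15.6 FPKM.

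The interferon-stimulated response element was searched on both strands as GAAA, any pair of bases and GAAA again, after the values of Psme1 had been seen. It was present in a window of 5 of 38 members (13.2%) and of 4.02% of all genes with a window. A match is again a description of letters, and neither a site nor the part of interferon in the values was tested. In Psme1 the match begins at base 10 counted from the start that RefSeq gives (chr14:55578493-55578522 with its flanks, GRCm38.p6, plus strand) and is shown because Psme1 is the member that was called, again with capitals for the match and 10 flanking bases on each side. The letters were not found in either window of Psme2.
Psme1: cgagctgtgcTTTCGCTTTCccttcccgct
The other members with a match were Psmd4, Psmd9, Psmb3 and Psmg4, and their cold fold changes were 0.41, −0.01, 0.32 and −0.63.

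Of the 6 assembly chaperone genes, 5 had negative values in the cold and none was called. Their median was −0.13, beside −0.10 for all genes tested, of which 11777 of 17552 were negative. Psmg4, a subunit of a chaperone pair that builds the alpha ring, was the lowest at 9.22 and 8.93 FPKM at 22 °C against 6.45 and 4.72 FPKM at 4 °C (log2 fold change −0.63, SE 0.18, limma, adjusted p = 0.0949). Psmg4 was at −0.25 with FPKM as deposited and at −0.30 with the muscle score in a fit of all 8 libraries. Its partner Psmg3 was at −0.11, and Psmg1 had the highest value (0.11). Psmd5 and Psmd9, which help the ATPase ring to form, were at −0.15 and −0.01.

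Other genes of the pathway were taken from a list of 40 found genes: factors that process or partner NRF1, proteins that help the proteasome assemble or associate with it, and ubiquitin genes and shuttle factors. In the cold, 3 of the 40 were called higher and none lower (limma), beside 2.66% and 4.20% of all genes tested. The median of the 40 was 0.04. Maff and Mafk, small MAF proteins that dimerise with NRF1, were called: Maff was at 1.85 and 1.27 FPKM at 22 °C against 11.9 and 11.5 FPKM at 4 °C (log2 fold change 2.32, adjusted p = 0.0249), and Mafk at 3.71 and 4.41 FPKM against 8.96 and 9.14 FPKM (0.99, adjusted p = 0.0396). Zfand5, an activator of the 26S proteasome that muscle also uses in atrophy, was at 18.4 and 18.5 FPKM against 44.2 and 34.1 FPKM (1.03, adjusted p = 0.0470). The muscle atrophy ligases Trim63 and Fbxo32 rose in the same libraries by 5.44 and 3.32 on the log2 scale, and the part of muscle in the value of Zfand5 was looked at only with the muscle score as covariate, under which it was at 1.01 with an adjusted p of 0.134. The call on Zfand5, like that on Mafk, was lost without any 1 of the 4 libraries, and that on Maff without either 4 °C library. With the muscle score Maff and Mafk were not called either (adjusted p = 0.0613 and 0.0765), nor without a filter (0.119 and 0.172), and Mafk was also lost with the sum of all rows (0.234). Zfand5 was lost as well with FPKM as deposited (0.0622), with the sum of all rows (0.263) and without a filter (0.234).

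The proteins that act on NRF1 were less clear. Ddi2, the protease that cleaves NRF1, was at 5.39 and 6.10 FPKM at 22 °C and 9.65 and 9.78 FPKM at 4 °C (log2 fold change 0.67, SE 0.14, limma, adjusted p = 0.0568), and it was called in 3 of 16 alternative settings. Ngly1, which removes its sugar chains, was at 0.21, and Nfe2l2, the related factor NRF2, at −0.20 on overlapping groups. Nfe2l3 had the lowest value of the list (−0.67, adjusted p = 0.0532) at no more than 1.26 FPKM. It was at −1.60 with a pseudocount of 0.1 and was called in 3 of 15 alternative settings, among them the fit without 22 °C replicate 4 (log2 fold change −0.82). Pomp, the chaperone that starts 20S maturation, was at −0.45 (25.4 and 23.3 FPKM against 12.9 and 23.8 FPKM), and at −0.028 without 4 °C replicate 2. The polyubiquitin gene Ubb was at 90.8 and 76.7 FPKM against 167 and 88.6 FPKM (0.54, adjusted p = 0.339) and the shuttle Sqstm1 at 73.3 and 66.8 FPKM against 128 and 74.9 FPKM (0.48). In Ubb and Sqstm1 most of the difference came from 4 °C replicate 2.

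The second comparison asked the same of the HFD. No proteasome gene was called between the diets: of 17691 genes tested, 0% were called in limma at an adjusted p under 0.05 (2333 at an unadjusted p under 0.05), and none of the 44 members was called or reached an unadjusted p under 0.05. The median of the members was −0.01, beside 0.09 for all genes tested and 0.16 for protein-coding genes with a mean of 1 FPKM or more. Both HFD libraries were above both CD libraries in 3 members (6.82%, beside 32.9% of all genes), namely Nfe2l1, Psme1 and Psme2b, and below in 2 (4.55%, beside 10.6%), Psmc5 and Psmd11. In the other 39 members the groups overlapped. The 20S sum was 1011 and 713 FPKM on CD and 741 and 890 FPKM on HFD, in the order CD replicates 6 and 8 and HFD replicates 2 and 6, and the 19S sum 593 and 489 FPKM against 494 and 571 FPKM, so that 2 libraries of 1 diet differed more than the diets did.

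The proteolytic subunits show this spread. Psmb5 was at 109 and 51.1 FPKM on CD and at 66.2 and 94.7 FPKM on HFD (log2 fold change 0.08, SE 0.42, limma, adjusted p = 0.971). Psmb6 was at 98.6 and 62.2 FPKM against 73.4 and 89.4 FPKM (0.05), and Psmb7 at 37.8 and 59.7 FPKM against 58.1 and 31.3 FPKM (−0.15). In the alpha ring Psma5 had the highest value (0.08) and Psma6 the lowest (−0.30, or −0.54 without HFD replicate 2 and −0.057 without HFD replicate 6), and among the genes with the Psmc prefix Psmc3ip, which is no ATPase, and Psmc5 stood at 0.19 and −0.22. The non-ATPase genes ran from Psmd8 (0.24) to Psmd11 (−0.31), and the chaperones from Psmg4 (0.38) to Psmg1 (−0.17). Both CD libraries weighed on these values: without CD replicate 8 Psmd11 was at −0.041 and Psmg4 at 0.016, and without CD replicate 6 they were at −0.59 and 0.75. Psme4 was the lowest activator gene (−0.02).

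Psme1 was at 29.8 and 22.6 FPKM on CD and at 32.7 and 33.9 FPKM on HFD, 0.35 on the log2 scale (SE 0.24, adjusted p = 0.626 in limma), and Psme2 at 65.4 and 31.6 FPKM on CD (0.04), with overlapping groups. Without 1 library at a time the diet value of Psme1 ranged from 0.15 to 0.54. For Psme1 the cold and diet fold changes differed by −1.42 in the fit over 8 libraries (adjusted p = 0.0368), the 1 member of 44 (2.27%) called lower where 4.69% of 19144 genes were, and none was called higher (1.61% of genes). This call was also lost in each fit that left out 1 library, except the fit without CD replicate 6, and with median centring, where Psmc5 was called instead (1.25, adjusted p = 0.0425). Psmc5 had the highest difference, 0.92 (adjusted p = 0.0602). The immunoproteasome genes were at 1.14 (Psmb8), 0.74 (Psmb9) and 0.85 (Psmb10) on the HFD. All 3 lay above both CD libraries, as did 32.9% of all genes tested, and none was called (limma, adjusted p from 0.257 to 0.431). Without CD replicate 6 the values were 1.59, 1.13 and 1.16 for Psmb8, Psmb9 and Psmb10, in a fit with 1 CD library. Psmb8 was called with library type as covariate (limma, adjusted p = 0.0453). Without CD replicate 8 the values were lower, at 0.70, 0.36 and 0.54 for Psmb8, Psmb9 and Psmb10, and with the muscle score they were 0.29, −0.05 and 0.55, which turned the sign of Psmb9. Macrophage markers were higher in the same libraries, at a sum of 51.2 and 100.3 FPKM on CD against 204 and 219 FPKM on HFD, with none of 8 called and 7 at an unadjusted p under 0.05. Of the pathway list none of the 40 was called and 1 had an unadjusted p under 0.05, with Mafk the highest at 0.77 (adjusted p = 0.250) and Ngly1 the lowest at −0.26. Ddi2, Nfe2l2, Ubb, Pomp and Sqstm1 stood at 0.23, 0.31, 0.12, −0.22 and −0.08 there. Interferon-induced genes were also at a higher sum on HFD (64.2 and 83.1 FPKM against 28.4 and 52.9 FPKM, none of 8 called, 3 at an unadjusted p under 0.05).

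The members also differed between the 2 libraries of a group. Of 43 members with a mean of 1 FPKM or more, 26 were higher in the satellite-low than in the satellite-high library in all 4 groups, where 21.3% of 10894 genes were, and 2 were lower in all 4, where 9.74% of genes were. The median difference was 0.28 on the log2 scale for the members and 0.05 for all genes with a mean of 1 FPKM or more. Psmd3 (0.69) and Psmb5 (0.61) had the highest differences, while Psmd12 (−0.87), Psmb7 (−0.58), Psme3 (−0.48), Psmd14 (−0.32) and Psma6 (−0.31) went the other way. Psmd12, a lid subunit, was at 17.9 FPKM in CD replicate 8 and at 5.10 FPKM in CD replicate 6, and at 13.9 FPKM in HFD replicate 2 and 6.03 FPKM in HFD replicate 6. Each comparison holds 1 library of each type per group, so the division at 100 FPKM does not lie along the cold or the diet. The level of Gm10800 did differ between satellite-high libraries. It was 6464 FPKM at 22 °C and 447 FPKM at 4 °C, and 9038 FPKM on CD and 15726 FPKM on HFD. The part of this level in the values was not tested. A prefix in the labels, whose meaning is not given there, does lie partly along the diet: CD replicate 6 shares it with the 4 temperature libraries, and CD replicate 8 and both HFD libraries carry another. Without CD replicate 6 the members' median diet value was 0.20 and none was called, and the part of the prefix in the diet values was not tested further. Within satellite-high libraries the members' median cold difference was 0.14, within satellite-low libraries 0.20.

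**Figure D4:**
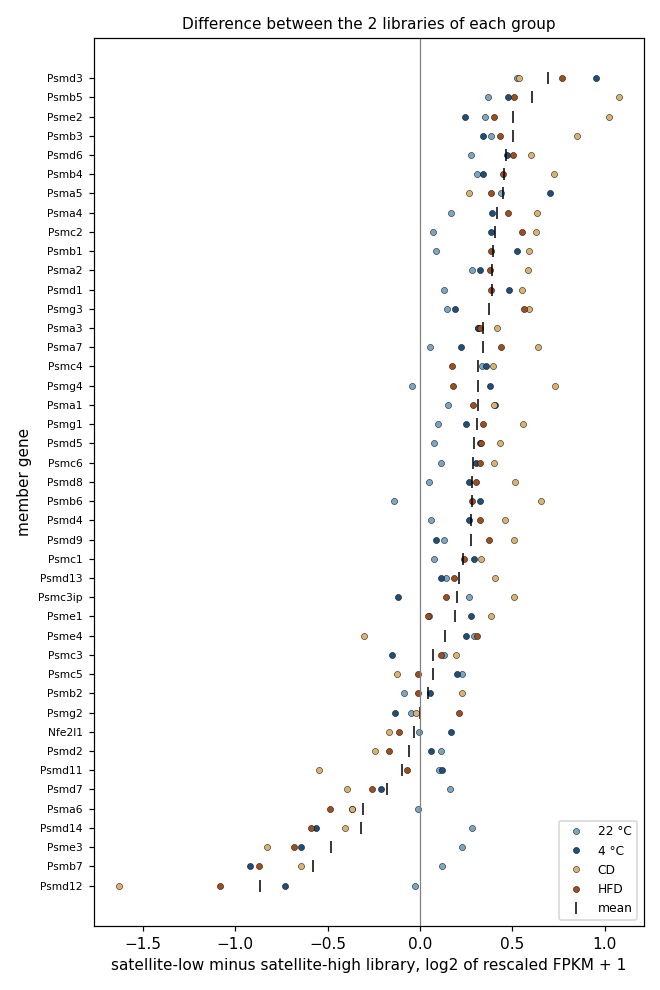
Difference between the satellite-low and the satellite-high library of each group for the 43 members with a mean of 1 FPKM or more, as log2(rescaled FPKM + 1), with colours for the groups and a tick for the mean. From Psmd3 at 0.69 down, 26 members lie right of 0 in all 4 groups, and Psmd12 at −0.87 is the lowest.

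Over the 8 libraries the members did not follow Nfe2l1 as a block. The Pearson r with Nfe2l1 had a median of 0.02 over 43 members and ran from 0.73 (Psmd7) to −0.55 (Psmb2). Next to Psmd7 came Psma5 (0.62), Psmc5 (0.56), Psmd2 (0.56) and Psmd8 (0.51). With Psmb5 the median r was 0.59, and 13 members were above 0.8, led by Psmc2 (0.96), while 8 were under 0. These values are descriptions over 8 libraries that share library type and scaling, and they carry no test. The median r with Nfe2l1 was 0.71 on the deposited scale, so this value moved with the scaling.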

How the data were processed

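The authors made directional, rRNA-depleted libraries, read paired ends of 100 bases, mapped them to GRCm38 with Tophat2 2.0.10 and computed gene values with Cufflinks on Ensembl 87; the version is given as 2.1.1 in the methods and 2.2.1 in the processing notes. The deposited values are FPKM per gene and library, without pooling. Whether strand was used in counting is not given in the sources used here. Of the members, 20 of 46 overlap another annotated gene (GENCODE M21), such as Psmc3 with Slc39a13 and Psmb7 with Nek6, so their reads could be shared.

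Groups were taken from the labels. FPKM were multiplied so that all libraries have the same autosomal sum over protein-coding and long non-coding genes, because X, Y and mitochondrial genes are listed at 0 in some libraries. limma 3.58.1 (R 4.3.3, eBayes with trend) was fitted on log2(FPKM + 1) for genes with 0.1 FPKM or more in at least 2 of the 4 libraries compared, without covariates; p-values are two-sided and Benjamini-Hochberg adjusted over all genes tested. The 2 libraries of a group are its replicates, and p-values measure only the spread between them. Because the table holds FPKM, limma took the place of the count test of the study. The fit was tested on simulated data. Fragment numbers were read from the smallest steps of low FPKM values in single-exon genes, of which 97.6% to 98.4% per library were whole within 0.1 fragment, with the step and the effective length chosen to maximise that share; they cover counting error only.

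Named members were Nfe2l1, Psmb5, Psmb6 and Psmb7, the highest and lowest fold change of each subgroup in each comparison, and members called; further members are named for their values. Of the pathway list, Ddi2, Ngly1, Pomp, Nfe2l2, Ubb, Sqstm1, the called genes and both extremes were named, and 1 further gene of the rule is not reported here. Members, lists and settings were chosen with earlier results of these data known. Marker lists covered brown adipocytes, skeletal muscle, macrophages, lymphoid cells, erythroid cells, muscle atrophy ligases and interferon-induced genes. Of erythroid markers 2 of 5 were found, with sums of 56.8 and 78.0 FPKM at 22 °C, 25.6 and 85.5 FPKM at 4 °C, 122 and 142 FPKM on CD and 197 and 340 FPKM on HFD.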

Additional observations from a re-analysis of the deposited data

How the results depend on the processing

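The call of 1 member in the cold moved to 0 with FPKM as deposited, with the autosomal sum of all rows, without a filter and with a muscle score over 8 libraries, to 2 with quantile normalization, all 8 libraries or library type as covariate, to 4 with median centring and to 5 with library type over all 8 libraries, while 21 members had non-overlapping groups. Without any single library the count was 0. Median centring called Psmc2 and Psmc5 higher and Psme1 and Psme2 lower, and library type over 8 libraries called Psmc4, Psmc5 and Psmd3 higher and Psme1 and Psme2 lower. The cause was not tested. The members' cold median was 0.57 with FPKM as deposited and 0.42 with the muscle score, and 0.08 to 0.27 without 1 library. On the diet no setting of limma called a member, 5 members had non-overlapping groups, the median was −0.34 with the muscle score and −0.12 to 0.20 without 1 library. For the difference between cold and diet, the count of 1 became 0 with FPKM as deposited, the sum of all rows, no filter or the muscle score, 2 with a filter of 1 FPKM, 3 with library type, and 0 to 2 without 1 library; with median centring it stayed 1, with Psmc5 called and Psme1 not; without CD replicate 6 it was 2, with Psmg4 at −1.38 added. The median r with Nfe2l1 was 0.71 as deposited, 0.36 with the sum of all rows, 0.037 without Ucp1 in the sum, −0.17 after quantile normalization, 0.018 with a pseudocount of 0.1 and −0.079 to 0.25 without 1 library.

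The signs of some values changed, and not all of these values were near 0. On the diet Psmg4 (0.38), Psma6 (−0.30), Psmd8 (0.24) and Pomp (−0.22) were among them. With FPKM as deposited, cold values became 0.19 (Nfe2l2), 0.33 (Psma3), 0.33 (Psmb1), 0.39 (Psmb6), 0.41 (Psmb7) and 0.24 (Psmd14), and diet values 0.012 (Psmb7), 0.14 (Psme4) and 0.084 (Sqstm1). Without Ucp1 in the sum, Psmb7 was at 0.020 in the cold. With median centring, cold values became 0.072 (Psma3), 0.070 (Psmb1), 0.13 (Psmb6) and 0.15 (Psmb7), and diet values −0.12 (Psma5), −0.11 (Psmb5), −0.15 (Psmb6), −0.071 (Psmc3ip) and −0.075 (Ubb). With the muscle score, cold values became 0.32 (Psma3), 0.31 (Psmb1) and 0.29 (Psmb6), and diet values 0.67 (Pomp), −0.36 (Psma5), 0.11 (Psma6), −0.83 (Psmb5), −0.33 (Psmb6), 0.48 (Psmb7), −0.27 (Psmc3ip), −0.17 (Psmd8), −0.0090 (Psmg4) and −0.71 (Ubb). After quantile normalization Psmc3ip was at −0.0066 on the diet.

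Without 1 library at a time, cold values ranged from −0.56 to 0.16 (Nfe2l2), −0.24 to 0.073 (Psma3), −0.35 to 0.18 (Psmb1), −0.19 to 0.13 (Psmb6), −0.46 to 0.46 (Psmb7), −0.035 to 0.26 (Psmc1), −0.43 to 0.13 (Psmd14) and −0.0095 to 0.24 (Psmg1). Diet values ranged from −0.047 to 0.50 (Ddi2), −0.071 to 0.68 (Nfe2l2), −0.77 to 0.32 (Pomp), −0.12 to 0.27 (Psma5), −0.45 to 0.62 (Psmb5), −0.28 to 0.38 (Psmb6), −0.59 to 0.28 (Psmb7), −0.063 to 0.45 (Psmc3ip), −0.022 to 0.49 (Psmd8), −0.17 to 0.13 (Psme4), −0.45 to 0.11 (Psmg1), −0.23 to 0.065 (Sqstm1) and −0.40 to 0.64 (Ubb). In these fits 1 group has a single library, which is assumed to vary like the others.

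Median centring shifted libraries by between −0.36 and 0.31 on the log2 scale. No paired analysis was possible because 22 °C and 4 °C share no replicate number and only number 6 occurs in both CD and HFD; the fits with library type, a division seen in the data, are those given above. Depth limits Psme2b, Psma8 and Psmb11, and 2 libraries a group limit every comparison.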
